A study of Mus musculus with 50 samples.

Results

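Aldehyde oxidases are soluble enzymes that carry a molybdenum cofactor, flavin and iron-sulfur centers, and they oxidize aldehydes and nitrogen-containing ring compounds, among them many drugs, N-methylnicotinamide and retinal. They are close relatives of xanthine dehydrogenase, and in the mouse their genes lie side by side in a cluster on chromosome 1. Aox1 and Aox3 are the members of that cluster known for expression in mouse liver, where aldehyde oxidase activity is known to be higher in males than in females. Both genes were followed here in 50 liver RNA-seq libraries, as 2 of the 12185 genes of the deposited expression table. They were chosen by their own values, namely by how their expression ran with the animal number in each library title and with each other, so these relations are given as descriptions without a test.

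The mice were male N2 offspring of parents that were each the F1 of a B6 mouse and a chromosome substitution strain, B6.A4 on one side and B6.A6 on the other. They differed from each other in A/J or C57BL/6J (B6) alleles on chromosomes 4 and 6 and carried B6 chromosomes otherwise, the one with the Aox cluster included. The methods give 5 weeks of age and overnight fasting before tissue collection, whereas the labels call the animals adult and F2. All libraries form a single group, and the genotypes at chromosomes 4 and 6 were not used here. The titles give each library a number from 1 to 59 and an animal number from I114 to I296. What the animal number stands for beyond naming a mouse is not given in the sources used here. Each value is a normalized CPM, the reads counted on a gene relative to a library size that was scaled between libraries.

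Reads counted on the genes of the table ran from 11965594 to 29976557 per library, with a median of 13620584, and 3 reads corresponded to between 0.0951 and 0.259 normalized CPM. The hepatocyte markers in the table, 7 of the 8 listed, summed to between 79474 and 125538 normalized CPM in every library. Of the 6 markers of adjoining fat and muscle, Fabp4 alone was in the table, at 4.09 to 21.3 normalized CPM, and Adipoq, Plin1, Acta1, Ckm and Myh4 were not listed. The 50 libraries carry 48 animal numbers, since the libraries numbered 8 and 10 share the animal number I191 and those numbered 22 and 55 share I248. Both genes differed within each of these pairs. Aox3 was 366 normalized CPM in library 8 and 130 in library 10, and it was 92.5 in library 22 and 146 in library 55. Library 24, which stood apart from the rest in an earlier analysis of these data, had 20.6 normalized CPM of Aox1 and 78.5 of Aox3, the latter the second lowest value. The study counts fewer mice than there are libraries, so n is a number of libraries throughout. Results are also given without these libraries. In whole liver, fewer cells of a type and less RNA per cell cannot be told apart.

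The cluster runs in one direction along the plus strand of chromosome 1 (GRCm38, GENCODE M21). Aox1 (ENSMUSG00000063558) spans chr1:58029931-58106413 and Aox3 (ENSMUSG00000064294) starts 6716 bases after it, at chr1:58113130-58200698. Aox4 and Aox2 follow after gaps of 9698 and 9728 bases and are not among the genes of the table. The annotated transcripts of Aox1 and Aox3 share 0 of 8745 and 0 of 7029 stretches of 31 bases with each other, and also none with Aox2 or Aox4. Aox3 also holds the small nucleolar RNA gene Gm24548 on the opposite strand, which is not in the table. The promoters of both genes are shown because the genes moved together while each has its own start. The promoter sequences were not compared with each other. Each line runs from 250 bases before to 50 bases after the RefSeq start (GRCm38.p6, plus strand), at chr1:58029719-58030018 for Aox1 and chr1:58112886-58113185 for Aox3, with capitals on matches to the motifs described next.
Aox1: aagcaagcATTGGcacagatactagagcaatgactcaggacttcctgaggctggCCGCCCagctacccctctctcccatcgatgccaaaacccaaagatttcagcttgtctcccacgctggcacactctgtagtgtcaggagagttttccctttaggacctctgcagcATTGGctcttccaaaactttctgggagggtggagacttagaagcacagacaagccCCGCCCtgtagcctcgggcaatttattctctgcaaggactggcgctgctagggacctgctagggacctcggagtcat
Aox3: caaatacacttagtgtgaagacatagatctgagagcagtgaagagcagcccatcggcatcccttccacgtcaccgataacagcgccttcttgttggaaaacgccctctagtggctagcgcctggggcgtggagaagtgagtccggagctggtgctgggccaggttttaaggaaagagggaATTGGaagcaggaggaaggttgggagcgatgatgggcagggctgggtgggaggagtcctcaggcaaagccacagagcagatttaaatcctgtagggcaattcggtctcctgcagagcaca

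The letters searched on both strands were GGGCGG (the GC box), CCAAT (the box of that name), TATAAA (the core promoter box bound by TBP), CACGTG (the E-box), TTCNNNGAA (the GAS element bound by STAT5) and TGACNNNGC (the core of the antioxidant response element bound by NRF2). In the Aox1 window, GC boxes on the minus strand had their first base at -196 and -27, and CCAAT boxes on the minus strand at -242 and -82, counting the start as 0. The Aox3 window held a CCAAT box on the minus strand at -70 and no GC box. GGGCGG occurs in 35.7% and CCAAT in 37.4% of the 32851 RefSeq promoter windows of the same length. The letters of the TATA box, the E-box, the GAS element and the antioxidant response element core were in neither window, and they occur in 13.6%, 7.15%, 8.30% and 12.4% of all windows. The windows had 54.3% and 55% G and C, against a median of 52.7%.

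Aox3 was the more abundant transcript of the pair in every library. Its values were 55.7 at the lowest, 199 at the median and 429 at the highest normalized CPM, with a mean of 209 ± 93.1 (SD, n = 50), so that the highest library had 7.71 times the lowest. Aox1 was 14.8 at the lowest, 26.8 at the median and 45.3 at the highest, with a mean of 28.4 ± 8.18 (SD, n = 50) and a 3.07-fold span. Per kilobase of annotated exon, the level of Aox3 was 29.7 ± 13.2 and that of Aox1 3.27 ± 0.941 normalized CPM. The ratio of the levels per kilobase ran from 3.15 to 18.4 with a median of 8.90, and was above 1 in 50 of 50 libraries.

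Both genes varied more between libraries than most genes of like abundance. A slope on animal number, part of how they were chosen, adds to this spread, so the comparison is a description. The coefficient of variation was 28.8% for Aox1, which exceeded 95.5% of the 200 genes closest to it in mean, with a median of 11.97% among them. For Aox3 it was 44.6%, exceeding 97.5% of the 200 closest genes, which had a median of 12.5%. Between 200 and 800 reads stood behind an Aox1 value and between 782 and 7582 behind an Aox3 value. Counting error accordingly made up 2.88% of the variance of Aox1 and 0.163% of that of Aox3. Without library 24 the means were 28.6 and 211 normalized CPM.

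Aox1 and Aox3 were lower in libraries with higher animal numbers. The animal numbers fall into ranges separated by gaps of more than 15 numbers, with 9 libraries at I114 to I133, 13 at I174 to I198 and 28 at I215 to I296. These ranges are not groups of the study. In the lowest range, Aox3 was 160, 284.1 and 387 normalized CPM at the lowest, median and highest library, with a mean of 284.7 ± 70.3 (SD, n = 9). In the middle range these values were 130, 310 and 429, with a mean of 286 ± 82.9 (SD, n = 13). In the highest range they were 55.7, 142 and 265, with a mean of 148 ± 51.3 (SD, n = 28). The highest range thus sat low but overlapped both others, and 5 of its 28 libraries were above the median of all libraries, against 8 of 9 and 12 of 13.

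Aox1 was also lowest in the highest range. Its lowest, median and highest values were 26.1, 36.8 and 40.5 normalized CPM in the lowest range, 15.96, 35.4 and 45.3 in the middle range, and 14.8, 23.2 and 37.6 in the highest range. The means were 34.3 ± 5.60 (SD, n = 9), 33.5 ± 8.74 (SD, n = 13) and 24.2 ± 5.98 (SD, n = 28). Above the median of all libraries were 7 of 9, 10 of 13 and 8 of 28 libraries.

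**Figure D1:**
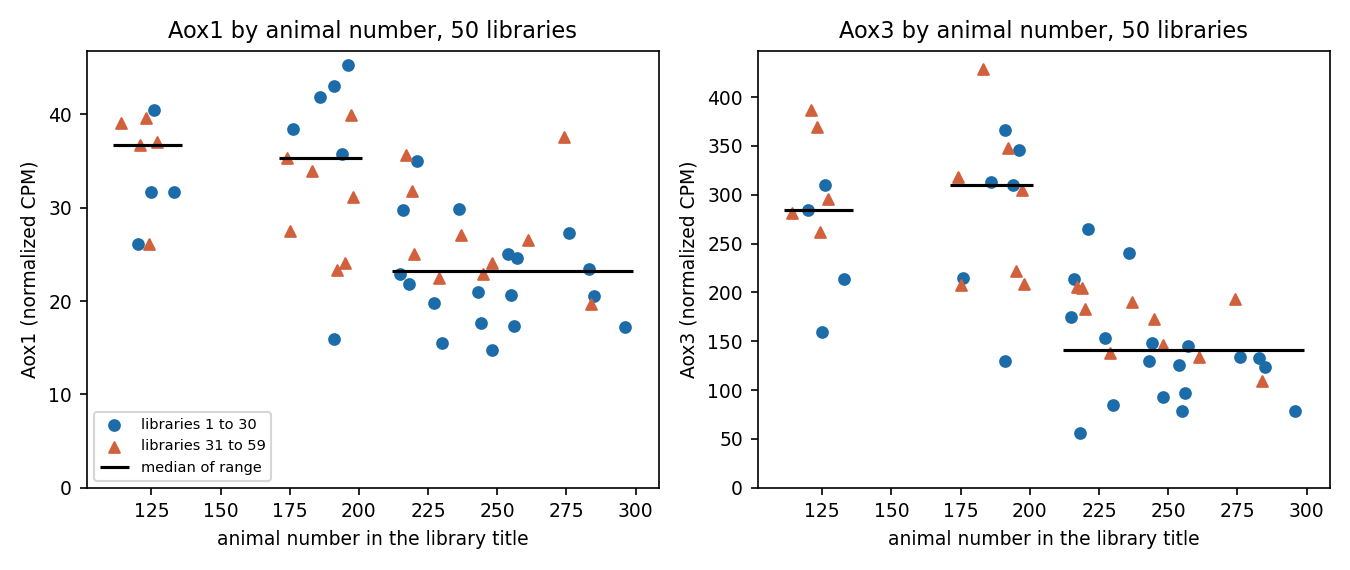
Normalized CPM of Aox1 (left) and Aox3 (right) against the animal number in the library title, with circles for libraries 1 to 30 (n = 28), triangles for libraries 31 to 59 (n = 22), and a black line at the median of each range of animal numbers. The Aox3 medians of 284.1 and 310 in the lower ranges stand above the 142 of the highest range, and the Aox1 medians of 36.8 and 35.4 above 23.2.

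On the scale of log2(value + 0.5), the slope over all libraries was -0.91 (SE 0.14) for Aox3 and -0.46 (SE 0.097) for Aox1 per 100 animal numbers, a 1.88-fold and a 1.37-fold lower level. Ordered from the most negative of the 11436 genes with a mean of at least 1 normalized CPM, these slopes were number 16 and number 101. Over the 50 libraries, Pearson's r with animal number was -0.670 for Aox3 (Spearman's rho -0.751) and -0.552 for Aox1 (rho -0.583). Of all 11436 genes, 14.2% passed limma's test for a slope with animal number after Benjamini-Hochberg adjustment, 7.49% rising and 6.73% falling. The members' slopes are part of how they were chosen and nothing is read from this share for them.

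Within the ranges the slopes had wide errors. For both lower ranges together the slope was -0.041 (SE 0.27) for Aox3 and -0.11 (SE 0.22) for Aox1. Within the highest range it was -0.81 (SE 0.38) and -0.36 (SE 0.26). Both sets of library numbers are parts of the values that chose the genes, so their slopes are no separate support. In libraries 1 to 30 the slope was -0.88 for Aox3 and -0.53 for Aox1, and in libraries 31 to 59 it was -0.82 and -0.32. After leaving out both pairs with a common animal number (4 libraries), the slopes were -0.88 and -0.44, and without library 24 they were -0.88 and -0.45.

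Libraries rich in Aox3 were also rich in Aox1. Over the 50 libraries, r between log2(value + 0.5) of both genes was 0.800 (rho 0.809). Both genes were above their medians in 21 libraries, both below in 21, and on opposite sides in 8. Within the lowest, middle and highest ranges of animal numbers, r was 0.435, 0.673 and 0.743. With the slope on animal number taken out of both genes it was 0.695, without the 4 libraries that share an animal number 0.783 and without library 24 0.800. Aox3 moved over a wider scale, with an SD of 0.69 in log2 units against 0.42 for Aox1. The ratio of Aox3 to Aox1 accordingly ran from 2.55 in library 15, the library with the least Aox3, over a median of 7.203 to 14.9 in library 40. By range of animal number its medians were 8.004, 8.14 and 6.03.

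**Figure D2:**
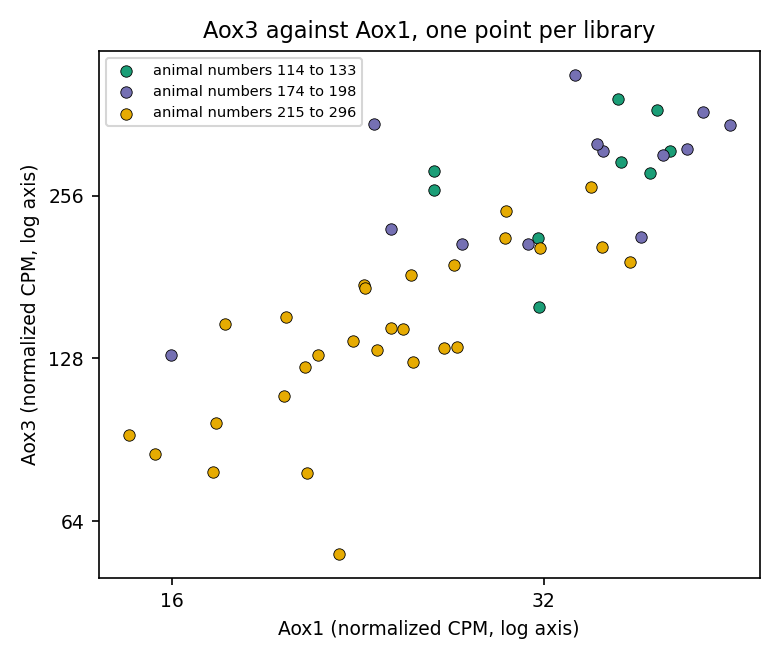
Aox3 against Aox1 in normalized CPM, both on log axes, 1 point per library and colored by range of animal numbers. The points rise together (r = 0.800 over 50 libraries), and those of the highest range, with animal numbers I215 to I296, fill the lower left.

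Library number splits the series into a first set of 28 (libraries 1 to 30) and a second set of 22 (libraries 31 to 59), and this split was not used to choose the genes. The animal numbers run through both sets, from I120 to I296 in the first and from I114 to I284 in the second, but not in equal shares. The highest range, with the lowest Aox1 and Aox3 medians, holds 18 of the 28 libraries of the first set and 10 of the 22 of the second. Aox3 was 55.7, 151 and 366 normalized CPM at the lowest, median and highest library of the first set, and 109, 208 and 429 in the second. The means were 182.9 ± 89.6 (SD, n = 28) and 241 ± 88.9 (SD, n = 22), and the sets overlapped over most of their span. Libraries 31 to 59 were higher by 0.48 on the log2 scale (SE 0.18), which did not pass limma's test over all genes (adjusted p = 0.0650). With the animal number as a covariate the difference was 0.31 (adjusted p = 0.128), and after adjustment for the fraction of signal in the 10 most abundant genes it was 0.50 and passed (adjusted p = 0.0404). The adjusted p ran from 0.0404 to 0.135 over the alternatives, edgeR included.

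For Aox1 the difference between the sets was smaller. Its lowest, median and highest values were 14.8, 24.8 and 45.3 normalized CPM in the first set and 19.7, 29.3 and 39.98 in the second, with means of 26.9 ± 9.11 (SD, n = 28) and 30.3 ± 6.54 (SD, n = 22). The log2 difference of 0.21 (SE 0.11) did not pass limma's test (adjusted p = 0.213, and 0.143 to 0.479 over the alternatives). Of all genes tested, 13.5% passed, 7.07% higher and 6.42% lower in libraries 31 to 59. These were 808 higher and 734 lower genes, and 410 and 894 after the columns were rescaled to an equal sum.

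The ratio of Aox3 to Aox1 was also compared between the sets. Its mean on the log2 scale was 2.64 ± 0.43 (SD, n = 28) in libraries 1 to 30 and 2.91 ± 0.40 (SD, n = 22) in libraries 31 to 59. The difference of 0.27 (SE 0.12) had p = 0.0264 in a 2-sided permutation test with 100000 resamples, and the distributions overlapped widely. Without the 4 libraries that share an animal number p was 0.0152, and without library 24 it was 0.043, in the same permutation test. With animal number as a covariate, a comparison added after seeing the data, the difference was 0.19 (SE 0.11) and did not pass (2-sided permutation p = 0.0823). Whether the slope on animal number differed between the sets was tested as an interaction in limma, which 0.035% of all genes passed. The estimate was 0.20 (SE 0.20, adjusted p = 0.811) for Aox1 and 0.060 (SE 0.28, adjusted p = 0.971) for Aox3, so a difference in slope was not detectable with this spread.

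**Figure D3:**
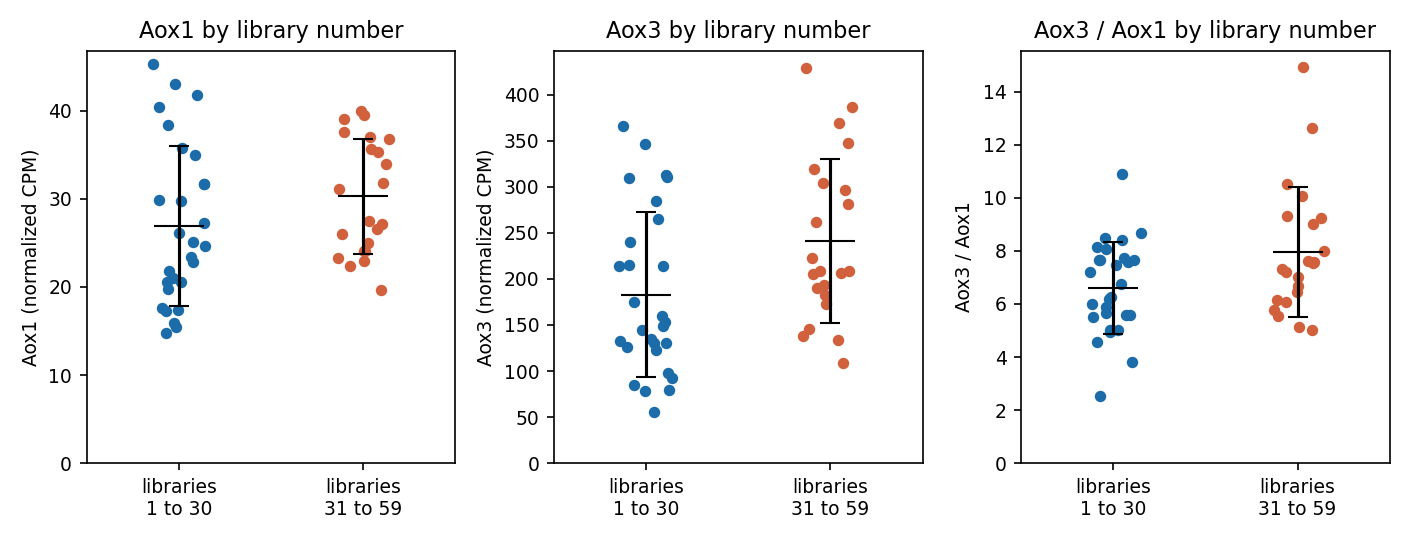
Aox1 and Aox3 in normalized CPM and the ratio of Aox3 to Aox1, for libraries 1 to 30 (n = 28) and libraries 31 to 59 (n = 22), with 1 point per library, shifted sideways for legibility, and the mean ± SD in black. The sets overlap in all panels, with Aox3 means of 182.9 and 241 and Aox1 means of 26.9 and 30.3.

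Depth did not move with either gene by a detectable amount. The r of log2(value + 0.5) with the counted reads was -0.175 for Aox1 (2-sided permutation p = 0.223, rho -0.114 with p = 0.43) and -0.0255 for Aox3 (permutation p = 0.86, rho 0.0314 with p = 0.829). Without the libraries numbered 19 and 20, the farthest from the median depth, r was -0.171 and -0.0045. Within libraries 1 to 30 r was -0.119 and 0.0686, and within libraries 31 to 59 it was -0.015 and 0.262. These are 2 of 4 relations computed in this family, and the permutation p adjusted over the 4 was 0.297 and 0.86.

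Male and female mouse livers differ in many transcripts under the control of pulsatile growth hormone, and a score of such genes ran in parallel with the aldehyde oxidases in these male mice. For this score, log2 values were standardized per gene, and the mean over 16 genes known as higher in female livers was subtracted from the mean over 17 known as higher in male livers, none of them on chromosome 4 or 6. It ran from -3.99 in library 24 to 2.11, with medians of 0.565, 1.58 and -0.489 in the lowest, middle and highest range of animal numbers. Its own r with animal number was -0.477. Aox1 and Aox3 were chosen partly by how they ran with animal number, so their p-values with the score are not free of that choice. The genes of the score were also listed with earlier results of these data known. The relations with the score are therefore read as descriptions, and their p-values carry no separate support.

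Aox3 rose with this score (r = 0.780, rho = 0.767, 2-sided permutation p = 1e-05 for both, the smallest that 100000 resamples can give, adjusted p = 4e-05 over the 4 relations). The relation was 0.731 without libraries 15 and 24, the farthest from the median score. It was 0.816 in libraries 1 to 30 (permutation p = 1e-05) and 0.692 in libraries 31 to 59 (permutation p = 0.00034). Within the lowest, middle and highest ranges of animal numbers r was 0.530, 0.650 and 0.679, and with the slope on animal number taken out of both it was 0.706.

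Aox1 also rose with the score (r = 0.562, rho = 0.578, 2-sided permutation p = 4e-05 for both, adjusted p = 8e-05). It was 0.556 without libraries 15 and 24 and 0.408 with the slope on animal number taken out. Within the lowest, middle and highest ranges of animal numbers r was 0.849, 0.315 and 0.302. In libraries 1 to 30 r was 0.676 (permutation p = 5e-05), whereas in libraries 31 to 59 it was 0.251 and did not pass (permutation p = 0.258). Whether r differed between the sets, the ranges or the genes was not tested. With the score as a covariate, the slopes on animal number were -0.52 (SE 0.11) for Aox3 and -0.30 (SE 0.10) for Aox1.

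**Figure D4:**
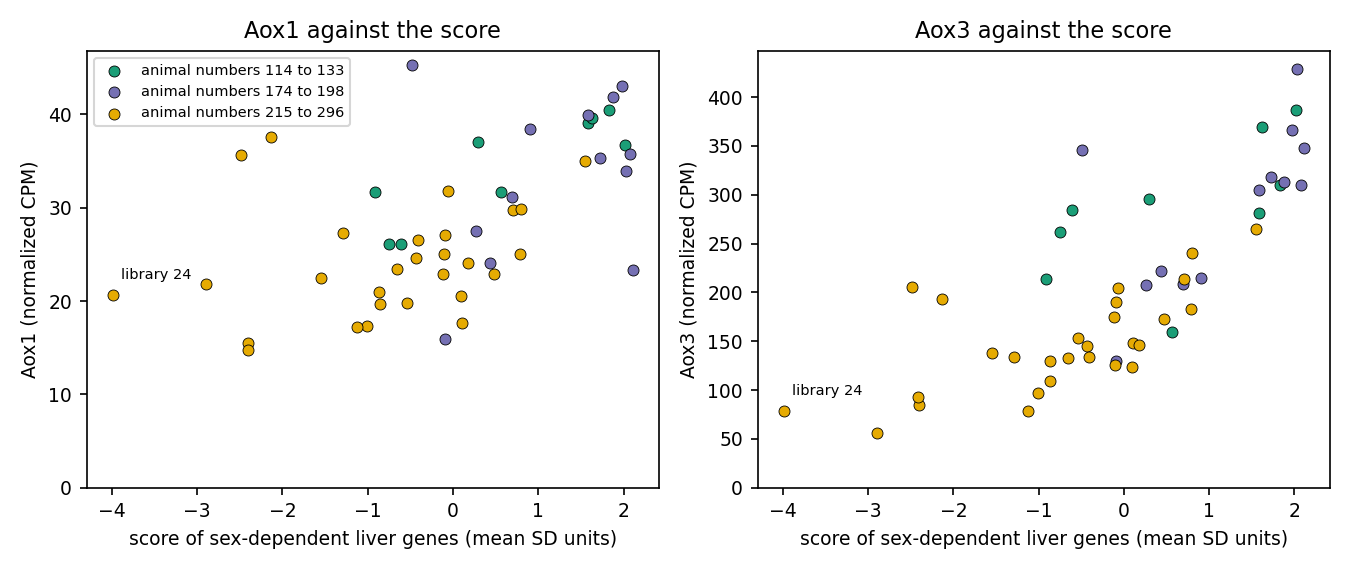
Normalized CPM of Aox1 (left) and Aox3 (right) against the score of sex-dependent liver genes in units of SD, 1 point per library, colored by range of animal numbers. Over all libraries r with the score is 0.780 for Aox3 and 0.562 for Aox1, a difference that was not tested. In the lowest range of animal numbers r is 0.530 for Aox3 and 0.849 for Aox1, while in the other ranges Aox3 has the higher r. Library 24 has the lowest score, -3.99.

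The genes whose pattern over the 50 libraries was most like Aox3 had r with it of 0.858 to 0.883. They were Slc22a30, a transporter of the organic anion family (r = 0.883), Acsm5, a medium-chain acyl-CoA synthetase (0.878), Pkp4, a plakophilin of cell junctions (0.869), Ghr, the growth hormone receptor (0.866), and Car3, a carbonic anhydrase (0.858). Slc22a30 ran from 7.54 to 61.0 normalized CPM over the libraries and Car3 from 37.9 to 546. With the slope on animal number taken out, r with Aox3 was 0.786 for Slc22a30, 0.854 for Acsm5 and 0.783 for Ghr. Among the most opposed were Apoa4, an apolipoprotein (-0.864), and Nt5e, an enzyme that forms adenosine outside the cell (-0.845). Apoa4 ran from 134 to 3591 normalized CPM. In all, 1.16% of the 11435 other genes had r above 0.7 with Aox3 and 0.883% below -0.7.

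For Aox1, 0.245% had r above 0.7 and 0.184% below -0.7, and Aox3 ranked second among the 11435 other genes. The order was Atp2c1, a calcium and manganese pump of the Golgi (r = 0.814), then Aox3, then Gclc, the catalytic subunit for the first step of glutathione synthesis (0.797), Lcp1, an actin-bundling protein (0.793), Lrit1 (0.780) and Cyb5b, the cytochrome b5 of the outer mitochondrial membrane (0.773). Gclc ran from 79.2 to 234 normalized CPM, and its r with Aox1 was 0.814 in libraries 1 to 30 and 0.772 in libraries 31 to 59. The lowest were Ctsl, a lysosomal protease (-0.780), Pdlim1, a cytoskeletal adaptor (-0.774), and Ociad1 (-0.765). Aox1 was number 28 among the genes most like Aox3. All libraries share library preparation and the same animal number ranges, and these likenesses are descriptions.

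The neighbors on chromosome 1 were set beside the pair. Within 500 kb of the cluster, 12 other genes are in the table and 11 had a mean of at least 1 normalized CPM. Their slopes on animal number lay between -0.20 and 0.28 in log2 units per 100 numbers. The slopes of Aox1 and Aox3, -0.46 and -0.91, were part of how the pair was chosen, so nothing is read from the difference. Cflar, an inhibitor of caspase activation, fell (-0.20, SE 0.067, limma adjusted p = 0.0376), and Kctd18 rose (0.19, SE 0.066, adjusted p = 0.0489). The r with Aox3 ran from -0.439 for Kctd18 to 0.652 for Cflar, and the r with Aox1 from -0.336 to 0.371. The coefficients of variation of the 12 genes had a median of 18.7% and ran from 8.43% to 40.6%, the highest in Spats2l, at a mean of 1.02 normalized CPM.

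**Figure D5:**
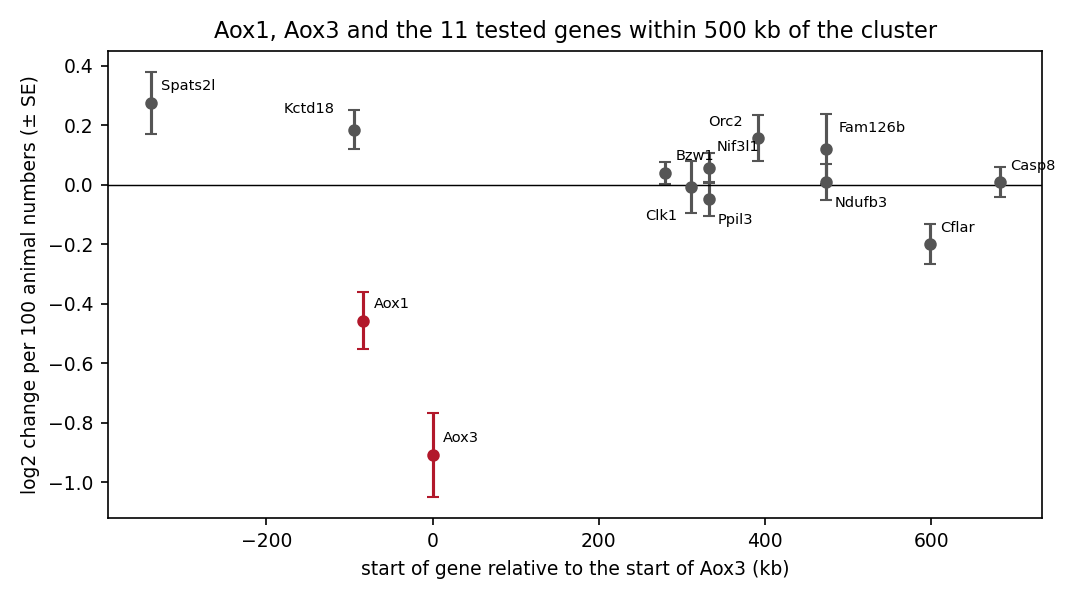
Log2 change per 100 animal numbers (points, with the standard error as bars) against the start of each gene relative to the start of Aox3 in kb, for Aox1 and Aox3 (red) and the 11 tested genes within 500 kb of the cluster (gray). Aox3 at -0.91 and Aox1 at -0.46, which were chosen partly by this slope, lie below the neighbors, which run from -0.20 to 0.28.

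Genes around the aldehyde oxidases were then followed in lists of the cofactor, the substrates and the known regulators. Over all lists, 180 genes were tested, of which 27 rose and 25 fell with animal number in limma, against the 7.49% and 6.73% of all genes given above. In libraries 1 to 30 alone 15 rose and 2 fell, beside 4.03% rising and 4.99% falling among all genes. In libraries 31 to 59 alone none of the 180 passed in limma, where 0.0874% of all genes rose, 0.0437% fell and 1707 of the 11436 had an unadjusted p under 0.05. With library set in place of animal number, 11 of the 180 were higher and 3 lower in libraries 31 to 59, no more than the 7.07% and 6.42% of all genes. Without the 4 libraries that share an animal number 42 of the 180 passed for animal number, and without library 24 also 42. The shares of all genes in these refits are not given here, so nothing is read from these counts.

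Of 4 other molybdenum cofactor enzymes, 1 rose with animal number and none fell, where 7.49% of all genes rose and 6.73% fell. So few genes say little about the list. Xdh, the xanthine dehydrogenase, was 71.8 ± 10.6 normalized CPM (SD, n = 50), with a slope of -0.092 (SE 0.058, limma adjusted p = 0.300) and r of 0.492 with Aox3 and 0.393 with Aox1. Suox, the sulfite oxidase, was 144 ± 18.3 and rose with animal number by 0.14 (SE 0.050, adjusted p = 0.0466), with r of -0.533 with Aox3. Marc1 and Marc2, the amidoxime reducing components of mitochondria, were 369 ± 36.5 and 267 ± 33.9 (SD, n = 50). Their r with Aox1 was -0.534 and -0.566. Marc1 was lower in libraries 31 to 59 by a log2 difference of -0.12 (SE 0.038, adjusted p = 0.0312), where 6.42% of all genes were lower.

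The genes that make and sulfurate the molybdenum cofactor showed no slope that passed. In limma none of 7 did, beside 14.2% of all genes, 1 had an unadjusted p under 0.05, and edgeR called 0. Mocs1 and Mocs2, which build the precursor and molybdopterin, were 98.2 ± 13.7 and 76.6 ± 8.01 normalized CPM (SD, n = 50), and Mocs3, which activates the sulfur carrier, was 3.26 ± 0.656. Gphn, gephyrin, which inserts molybdenum, was 40.7 ± 5.96 and was higher in libraries 31 to 59 by 0.23 (SE 0.053, limma adjusted p = 0.00271). Mocos, the sulfurase that aldehyde oxidases and Xdh need for activity, was 37.3 ± 4.48, with r of 0.466 with Aox1 and 0.372 with Aox3. Nfs1, the cysteine desulfurase, was 33.3 ± 2.39. The list also held Slc25a51, encoded on chromosome 4, at 71.8 ± 16.01, which is known as a mitochondrial NAD carrier and not as a cofactor enzyme.

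Few genes of the substrate lists passed, in shares near those of all genes. Of 14 genes of nicotinamide and NAD metabolism, Nampt, the rate-limiting enzyme of NAD salvage, fell with animal number (-0.18, SE 0.061, limma adjusted p = 0.0333) and had r of 0.549 with Aox3. Of 18 genes of retinoid metabolism, 1 rose and 2 fell. Adh4, an alcohol dehydrogenase that oxidizes retinol, fell by 0.47 (SE 0.11, limma adjusted p = 0.00252), from a median of 57.4 normalized CPM in the lowest range of animal numbers to 42.6 in the highest, and had r of 0.734 with Aox3. Rdh7, a retinol dehydrogenase, fell by 0.13 (SE 0.039, adjusted p = 0.0160). Of 13 aldehyde dehydrogenases, Aldh1l1, of the folate pathway, rose by 0.21 (SE 0.069, adjusted p = 0.0323) and Aldh9a1 by 0.13 (SE 0.043, adjusted p = 0.0346). Aldh1l1 is encoded on chromosome 6, where these mice differ in alleles. Aldh6a1 and Aldh7a1 were higher in libraries 31 to 59, as were 7.07% of all genes.

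Of 14 targets of NRF2, the transcription factor of the oxidative stress response known to act on Aox1, 2 rose and 3 fell with animal number. Among all genes 7.49% rose and 6.73% fell. Gclc fell by 0.38 (SE 0.096, limma adjusted p = 0.00528), with medians of 177, 162 and 119 normalized CPM over the ranges, and Gclm and Ugdh also fell. Pgd, an enzyme of the pentose phosphate pathway, rose by 0.31 (SE 0.044, adjusted p = 1.88e-05), and Nqo1, the quinone reductase, rose by 0.27 (SE 0.078, adjusted p = 0.0153). Pgd is encoded on chromosome 4, where these mice differ in alleles. The r of Pgd with Aox3 was -0.787 and that of Nqo1 was -0.535. The median r over the 14 targets was 0.115 with Aox1 and 0.035 with Aox3, against -0.0015 and 0.0031 over all other genes. Gclc, Gclm, Txnrd1 and Ugdh were higher in libraries 31 to 59, and none of the targets was lower. Among all genes 7.07% were higher and 6.42% lower in these libraries.

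Of 15 genes of the growth hormone and IGF axis, 2 rose and 3 fell, where 7.49% of all genes rose and 6.73% fell. The median r over the 15 genes was 0.025 with Aox1 and 0.014 with Aox3, against -0.0015 and 0.0031 over all other genes. Ghr fell by 0.37 (SE 0.071, limma adjusted p = 0.000528), with medians of 269, 266 and 200 normalized CPM over the ranges, and was higher in libraries 31 to 59 by 0.24 (SE 0.082, adjusted p = 0.0470). Hnf4a, a hepatocyte transcription factor, fell by 0.23 (SE 0.074, adjusted p = 0.0308), as did Igfals, the carrier subunit of circulating IGF. Igfbp3, another IGF carrier, rose by 0.48 (SE 0.11, adjusted p = 0.00197) and had r of -0.688 with Aox3. Stat5a, a signal transducer of the growth hormone receptor, also rose.

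Of the 22 genes known as higher in male livers, 14 fell with animal number and none rose, where 6.73% of all genes fell and 7.49% rose. Their median slope was -0.51 against -0.0012 over all genes tested, and edgeR called 15. All 22 had a positive r with Aox1 and with Aox3, with medians of 0.428 and 0.687, and of 0.276 and 0.589 with the slope on animal number taken out. Hsd3b5, a steroid dehydrogenase, fell by 1.42 (SE 0.29, limma adjusted p = 0.000943), with medians of 13.9, 15.1 and 4.14 normalized CPM over the ranges and r of 0.848 with Aox3. Mup20, a urinary pheromone carrier encoded on chromosome 4, fell by 1.118 (SE 0.23, adjusted p = 0.000980), and C6, a complement component, by 0.84 (SE 0.18, adjusted p = 0.00145). These genes also stand behind the score above, except for those on chromosomes 4 and 6.

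Of the 19 genes known as higher in female livers, 8 rose and none fell, where 7.49% of all genes rose and 6.73% fell. Their median slope was 0.31, and edgeR called 7. Their r was positive for 1 of 19 with either Aox gene, with medians of -0.423 for Aox1 and -0.518 for Aox3, and of -0.339 and -0.417 with the slope on animal number taken out. Cyp2b10, a xenobiotic-metabolizing cytochrome, rose by 1.46 (SE 0.29, limma adjusted p = 0.000818), with medians of 9.01, 10.98 and 30.2 normalized CPM over the ranges. Cyp17a1, a steroid hydroxylase, rose by 1.27 (SE 0.26, adjusted p = 0.000885) and had r of -0.835 with Aox3, and Cyp39a1, an oxysterol hydroxylase, rose by 0.61 (SE 0.11, adjusted p = 0.000216).

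Some markers of the cells that whole liver holds passed for animal number, where 7.49% of all genes rose and 6.73% fell. Of 7 hepatocyte markers, Alb rose by 0.26 (SE 0.046, limma adjusted p = 0.000262) and Cps1 by 0.30 (SE 0.094, adjusted p = 0.0257), while the median slope was 0.037. The summed level had medians of 90621, 95749 and 110123 normalized CPM over the ranges, and Alb alone had 68498, 70740 and 84000. Of 9 periportal genes, Arg1 rose by 0.24 (SE 0.055, adjusted p = 0.00234) and Hal by 0.26 (SE 0.080, adjusted p = 0.0241), and Arg1 had r of -0.757 with Aox1 and -0.735 with Aox3. Of 9 pericentral genes, Lect2 fell by 0.22 (SE 0.077, adjusted p = 0.0491), while edgeR called none of the 9 and 2 had an unadjusted p under 0.05 in limma. The summed level over the ranges was 7974, 8365 and 7524.

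Of 5 markers of red blood cell precursors, 4 hemoglobin genes rose and Alas2, the first enzyme of heme synthesis in these cells, fell. Hba-a1 rose by 0.74 (SE 0.15, limma adjusted p = 0.000680), and the summed level was 157, 152 and 196.5 normalized CPM over the ranges. The median r of the list was -0.580 with Aox1 and -0.623 with Aox3, and -0.384 and -0.388 with the slope on animal number taken out. The hemoglobin genes are near-identical copies between which reads may be split. Of 7 stellate cell markers, Dcn rose by 0.34 (SE 0.076, adjusted p = 0.00221) and Col3a1 by 0.46 (SE 0.13, adjusted p = 0.0112), and the summed level was 101, 131 and 155. Of 6 endothelial markers, Lyve1 rose by 0.32 (SE 0.11, adjusted p = 0.0427), with summed levels of 182.7, 193 and 200.

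Of the 8 tested markers of Kupffer cells and leukocytes, limma called 0 and edgeR 0 for animal number, with 1 at an unadjusted p under 0.05. Their summed level was 280, 330 and 315 normalized CPM over the ranges, and the leukocyte markers Cd3e, Ly6c2 and S100a8 were not in the table. Of 4 bile duct markers, limma called 0 and edgeR 0, with 0 at an unadjusted p under 0.05, and the summed level was 28.02, 31.5 and 30.4, with Krt7 not in the table. Fabp4 had a slope of 0.12 (SE 0.13, adjusted p = 0.593). The part of these cell markers in the values of Aox1 and Aox3 was not tested.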

How the data were processed

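Liver RNA of male mice was sequenced as 50 stranded poly(A) libraries. Per the paper and the labels, the authors mapped reads with HISAT2 to GRCm38.p5, obtained gene counts from HTSeq 0.11.1, removed low-count genes and normalized with edgeR. The deposited values are an expression signal, normalized CPM, whose columns sum to between 886171 and 1120647. Division by the value of 1 read gave whole reads for 100% of values within 0.01. Counting error and read limits cover counting only, since PCR copies are not independent molecules.

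Both genes and all lists were chosen with earlier results of these data known. Slopes on animal number, library set differences and their interaction were fitted with limma 3.58.1 in R 4.3.3 on log2(value + 0.5) for the 11436 genes with a mean of at least 1, 2-sided, calling a Benjamini-Hochberg adjusted p under 0.05. Fold changes on this scale are understated for low genes. Alternatives were edgeR 4.0.16 on the recovered reads, other pseudocounts and filters, columns rescaled to an equal sum, covariates, and libraries left out. Correlations used Python 3.11.15 and scipy 1.17.1 with permutation tests. On simulated data with 200 genes changed 2-fold, limma recovered 200 for animal number (7 others called of 11451), 200 for library set (10 of 11429) and 197 for the interaction (9 of 11437). Recovery of smaller changes, such as the log2 differences of 0.21 (Aox1) and 0.48 (Aox3) between library sets, was not tested. Named genes were Aox1, Aox3, the cofactor lists, the 5 most and 3 least like each member, neighbors within 500 kb, and up to 3 genes of each other list with the smallest adjusted p (up to 2 with the highest mean where none passed). Other genes that passed are named without values and were chosen after their values were seen. Single-gene results of some genes under this rule are not reported here. The p-values measure the spread between these libraries.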

Additional observations from a re-analysis of the deposited data

How the results depend on the processing

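Of 142 values recomputed under alternatives, 129 were held alike. Tested values were held alike if they kept their direction and their side of the threshold. Untested slopes had to stay within the standard error, means within the SD and r within its 95% interval. Counts of listed genes as far apart as 52 and 42 were held alike. Some of the 129 could not move, since filters on low values leave the slopes of both members unchanged. The slope of Aox1 on animal number was -0.30 with the score of sex-dependent genes as a covariate, -0.32 in libraries 31 to 59 alone and -0.11 in both lower ranges of animal numbers alone. That of Aox3 was -0.52 with the score and -0.041 in both lower ranges. The splits by range were chosen after seeing the data. With the score as a covariate 9 listed genes passed for animal number, in place of 52. Among all 11436 genes 140 rose and 87 fell, in place of 856 and 770. The score is itself made from listed genes. For library set, Aox3 passed after adjustment for the fraction of signal in the 10 most abundant genes (0.50, limma adjusted p = 0.0404), and 23 listed genes passed in place of 14. Among all genes 923 were then higher and 855 lower in libraries 31 to 59, in place of 808 and 734. With counted reads as a covariate 8 listed genes passed, and nothing is read from this count without its share over all genes. The interaction for Aox3 turned to -0.18 with the adjustment for the most abundant genes (limma adjusted p = 0.878), not passing either way. The ratio of Aox3 to Aox1 no longer passed between library sets with animal number as a covariate, also added after seeing the data (0.19, permutation p = 0.0823). The r between Aox1 and Aox3 was 0.661 within libraries 31 to 59 and 0.435 within the lowest range of 9 libraries. The cause of these shifts was not tested. The lowest values of Aox1 and Aox3 rest on 200 and 782 reads. No paired analysis was possible because the libraries form a single group.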
